A study of Strongylocentrotus purpuratus with 5 samples.

Results

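Matching pairs are regions of the genome of the purple sea urchin *Strongylocentrotus purpuratus* that were called accessible with nearly the same bounds in embryos of 20 h and of 12 h. They were chosen by measured values, namely the bounds of the regions in the list of each stage. A pair was kept when each region overlapped by at least 1 bp only the other in the list of the other stage, when the overlap covered at least 80% of each, and when at least 1 of the regions was shorter than 1000 bp. There were 41715 matching pairs among 132054 one-to-one pairs, which is 31.6% (Wilson interval 31.3 to 31.8%). They made up 16.1% of the 258515 pooled 20 h regions and 17.5% of the 238838 pooled 12 h regions. The remaining 90339 one-to-one pairs, called other pairs here, include 1348 pairs that met the overlap rule but reached 1000 bp at both stages. Wilson intervals cover counting error only, since neighbouring regions are not independent.

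The assay was ATAC-seq, in which a transposase cuts accessible DNA and inserts sequencing adapters there, on nuclei of whole embryos reared at 15 °C. At 20 h there were 3 libraries, of which 2 are technical replicates of the same biological replicate 1 and the other is from biological replicate 2, and at 12 h there were 2 libraries of 2 biological replicates. The labels call both stages hatching blastula, while the study separates an early from a late blastula. Nuclei of 20 h replicate 1 were released by a lysis protocol, whereas those of 20 h replicate 2 and of both 12 h replicates passed a density gradient, so that preparation and biological replicate cannot be told apart at 20 h.

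Short accessible regions often hold promoters and enhancers, where bound transcription factors displace nucleosomes. The blastula is the stage at which territories of the sea urchin embryo take up separate regulatory states. Some enhancers of its gene regulatory network have been tested with reporter genes. A region with the same bounds at both ages was called accessible at each age, but its bounds say nothing of how accessible it was. The 12 h list carries no score, so that stability here means position and extent alone, and all fold enrichments below are from 20 h.

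The 3 lists of single 20 h libraries held 248700 peaks for the first technical replicate of replicate 1, 300000 for its second and 160654 for replicate 2. The second was at the largest number of peaks that the authors kept. These lists carry no read totals. The quality report of the study gives totals per library, with the second technical replicate the deepest and replicate 2 the shallowest, the same order as their numbers of peaks, and no value here was scaled to them. Among the 20 h libraries that report also gives the second technical replicate by far the highest share of duplicate reads and the lowest library complexity. Replicate 2 had by far the highest share of mitochondrial reads. The median pooled region was 252 bp long at 20 h and 325 bp at 12 h. The quality reports of the study give the earlier stage far more reads after filtering than the later one, all of them paired-end. Differences in length and bounds between the stages therefore cannot be told apart from depth and read type.

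Matching pairs were longer than other pairs at 20 h but not at 12 h. At 20 h their length ran from 150 to 1197 bp with a median of 347 bp (quartiles 242 and 504 bp), against a median of 267 bp in other pairs (192 and 392 bp). At 12 h it ran from 150 to 1216 bp with a median of 359 bp (250 and 520 bp), against 373 bp in other pairs (264 and 535 bp). Together they covered 16.6 Mb at 20 h, or 20.3% of the sequence in that list, and 17.1 Mb at 12 h, or 17.7%. The bounds at both stages entered the rule. Differences in length between matching and other pairs are thus not independent of it and are a description. The rule also bounds how far the lengths of a pair can part. Within that bound the 20 h region was the shorter one in 61.01% of matching pairs, the longer one in 37.8% and equally long in 514. The median ratio of 20 h over 12 h length was 0.964 in matching pairs and 0.717 in other pairs. Depth and read type also differed between the stages, and their part in these lengths was not tested.

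The bounds of a matching pair were usually close together. The first base at 20 h lay a median of 5 bp downstream of that at 12 h (quartiles -14 and 28 bp, range -213 to 222 bp, SD 38.6 bp). The last base at 20 h lay a median of 5 bp upstream, an offset of -5 bp (quartiles -28 and 15 bp, range -222 to 217 bp, SD 38.9 bp). Without sign the median offset was 22 bp at either end, against 77 and 76 bp in other pairs, and the centres were a median of 18 bp apart, against 65 bp. Both bounds agreed within 10 bp in 8.20% of matching pairs, within 25 bp in 31.2% and within 50 bp in 70.2%. These offsets follow from the rule and are a description. In 33.4% the 20 h region lay inside the 12 h region, in 16.7% the 12 h region lay inside the 20 h region, and in 49.7% both bounds were displaced to the same side. The same shares were 47.2%, 10.9% and 41.9% in other pairs, so that displacement to 1 side was the most frequent layout among matching pairs and nesting of the 20 h region among other pairs.

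Exact coincidence of a bound was far more frequent than a miss by 1 bp. The first base was the same at both stages in 2155 matching pairs (5.17%), the last base in 2070 (4.96%) and both in 98. Offsets of 0 bp were 4.92 times as frequent as those of 1 bp to either side at the first base and 4.58 times at the last. Smaller excesses stood at offsets of 5 bp, which were 2.02 and 1.89 times as frequent per base as their neighbours at 4 and 6 bp, at 10 bp, with 1.65 and 1.69 times against 9 and 11 bp, and at 2 bp, with 1.55 and 1.50 times against 1 and 3 bp. Other pairs had nearly the same ratios, 4.95 and 5.21 at 0 bp, 1.96 and 1.92 at 5 bp, 1.77 and 1.75 at 10 bp, and 1.49 and 1.58 at 2 bp. The excesses thus stood at the same offsets in both groups. The reason for it was not tested.

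**Figure D1:**
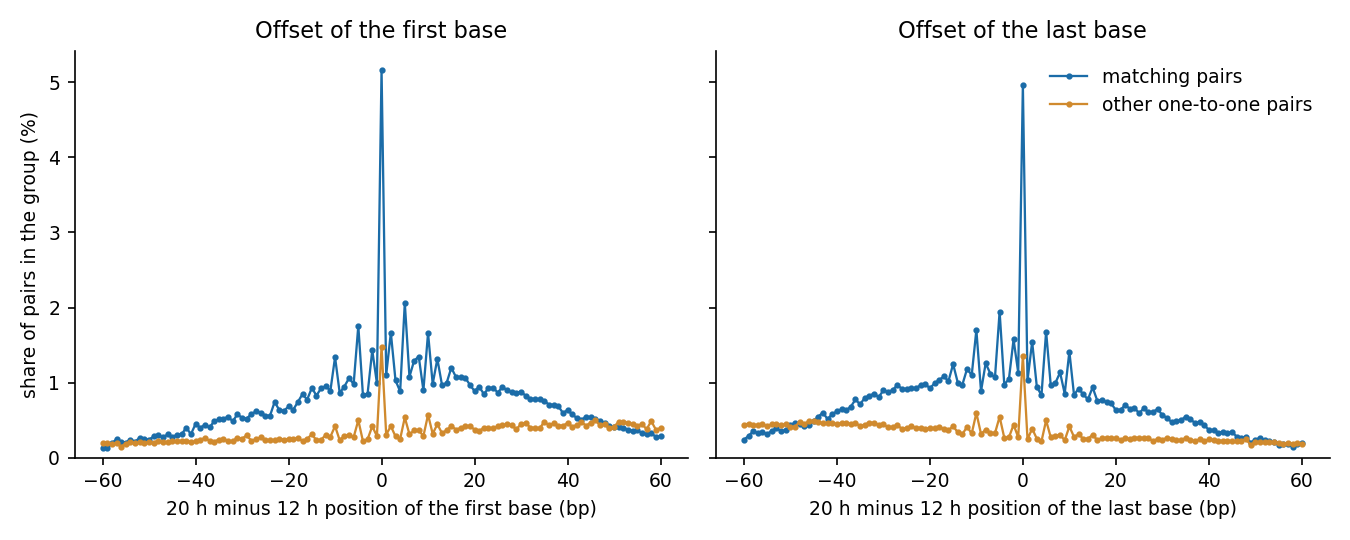
Share of pairs (%) at each offset of the first base (left) and the last base (right), 20 h minus 12 h position in bp, for matching pairs (blue) and other one-to-one pairs (orange). In both groups the share peaks at 0 bp, where it reaches 5.17% and 4.96% in matching pairs, with smaller peaks at 2, 5 and 10 bp to either side, while other pairs lean to positive offsets of the first base and to negative offsets of the last.

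Support in both replicates was similar whether or not a bound was shared exactly, but the sets differed in length. Pairs that shared 1 bound numbered 4029, with a median 20 h length of 295 bp, and 51.8% were found in both 20 h replicates. For the 37588 pairs that shared neither, the median length was 353 bp and the share 54.6%. The 98 pairs that shared both had 248.5 bp and 54.1%. Longer regions were found in both replicates more often, and these sets were not compared at equal length. The best ranked pair with both bounds the same, by the mean rank of its −log10 p in the 3 libraries, was on scaffold 422 from 438871 to 439481 in genome version 3.1, which all coordinates here use. Its fold enrichment over the local background was 7.48 in the first and 6.86 in the second technical replicate of replicate 1, with 15.1 in replicate 2, and its rank among matching pairs was 307. The next was a region of 224 bp on scaffold 702 from 287326 to 287549, with folds of 6.11, 5.14 and 6.02 in the same order of libraries. The third, on scaffold 2409 from 43857 to 44357, had folds of 5.37, 6.25 and 4.49 and summits within 6 bp of each other in the 3 libraries. The fourth spanned 33459 to 33925 of scaffold 2691 and the fifth spanned 725728 to 726271 of scaffold 119. None of these 5 was among the 10 best ranked matching pairs.

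Matching pairs were found in the single 20 h libraries more often than other pairs. A peak was present in both biological replicates, with either technical replicate counting for replicate 1, in 54.3% of matching pairs (22654), against 39.9% of other pairs (36079) and 34.4% of all pooled 20 h regions. The difference of 14.4 percentage points fell to 7.43 points when other pairs were weighted to the 20 h lengths of matching pairs. All 3 libraries had a peak in 40.7% of matching pairs, against 23.7% of other pairs and 20.6% of all regions. No library had one in 244 matching pairs (0.585%), whose median 20 h length was 155 bp and whose longest was 437 bp, against 1.87% of other pairs. The pooled list was called on these same libraries, and the pairing with 12 h used the bounds of that list. Support is thus not independent of the choice of pairs, although the peaks of single libraries did not enter the rule. The same limit holds for the fold enrichments and q-values below, and all these differences are descriptions.

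Each library showed the same order. The first technical replicate of replicate 1 had a peak in 74.7% of matching pairs and 64.1% of other pairs, with 64.3% of all regions. The second had one in 90.5% and 81.6%, with 77.8% of all regions. Replicate 2 had one in 56.1% and 43.5%, with 37.7% of all regions. The mean excess of matching pairs over 2 biological replicates, technical replicates averaged first, was 11.2 ± 1.97 percentage points (SD, n = 2). With 2 replicates an exact sign-flip test cannot go below p = 0.5, so no test was made of this or of the fold enrichments.

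Fold enrichment was also higher in matching pairs, by a small step at the median and a larger one in the upper part. Among regions with a peak the median fold in the first technical replicate was 3.34 in matching pairs (quartiles 2.73 and 4.27) and 3.07 in other pairs (with 3.74 as the third quartile). In the second it was 3.40 (2.75 and 4.29) and 2.99 (3.51). In replicate 2 it was 3.37 (2.73 and 5.05) and 2.92 (3.65). The log2 ratio of the medians was 0.12, 0.19 and 0.21 in these libraries, with a mean of 0.18 ± 0.04 over biological replicates (SD, n = 2). For the third quartiles, an alternative chosen after seeing the data, the mean was 0.35 ± 0.16 (SD, n = 2). The third quartiles of the groups lay farthest apart in replicate 2. In replicate 2 the median of other pairs is itself a tied value, 2.92, which 10.8% of its peaks in matching pairs and 11.8% in other pairs carried. A q-value below 0.05 was reached by 74.5%, 80.9% and 55.5% of these peaks in matching pairs, against 62.9%, 68.5% and 38.8% in other pairs.

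**Figure D2:**
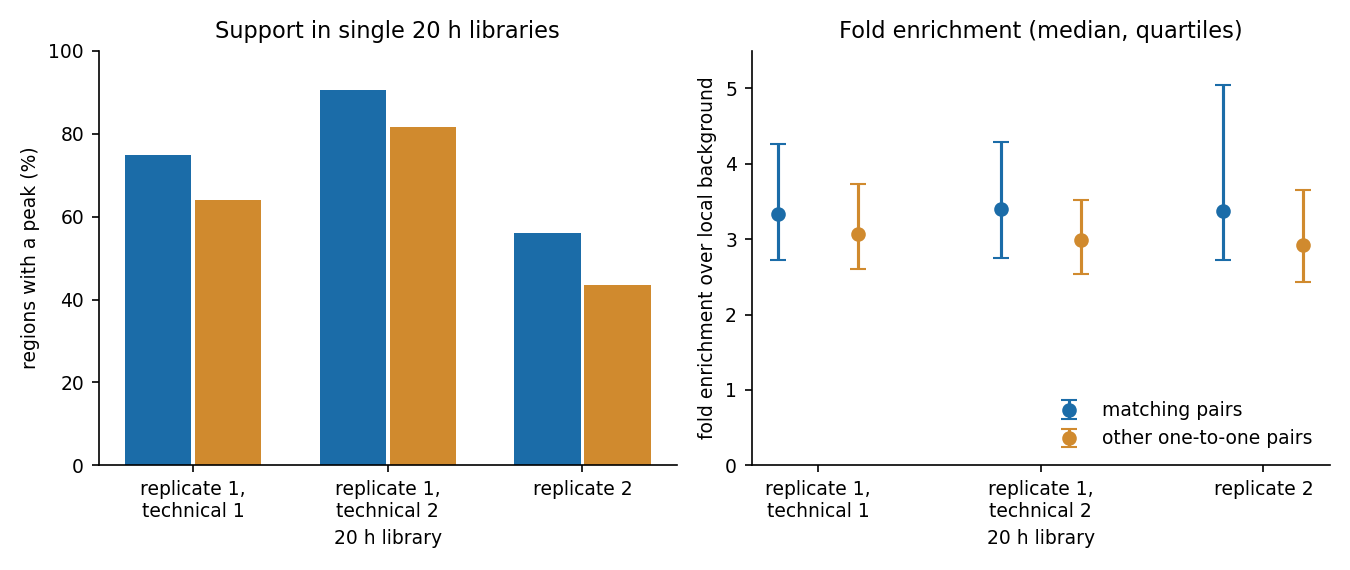
Left, share (%) of matching pairs (blue) and other one-to-one pairs (orange) with a peak in each 20 h library. Right, median fold enrichment over the local background among regions with a peak, with bars from the first to the third quartile of regions. Matching pairs are higher in all 3 libraries on both measures, and in replicate 2 the third quartile of matching pairs is 5.05, against 3.65 in other pairs.

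The difference was widest among strongly enriched regions. In regions found in both biological replicates the mean fold of the replicates had a median of 3.47 in matching pairs (lowest 1.74, highest 24.1) and 2.99 in other pairs (highest 21.7). It was at least 5 in 20.6% of matching pairs (4676) and 7.21% of other pairs (2601). At 10 or more there were 256 matching pairs (1.13%) and 82 other pairs (0.227%). The median SD between the biological replicates was 0.686 in matching pairs and 0.494 in other pairs, so the higher folds also differed more between replicates. Among the 16980 matching pairs with a peak in every library, replicate 2 had the highest fold in 41.3%, against 33.1% of such other pairs. Folds of different regions in a library are each set against that library's own background and share its depth.

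Length ran along with both measures. Of one-to-one pairs whose 20 h region was 150 to under 200 bp long, 17.3% were matching pairs, and this share was 28.1% from 200 to under 250 bp, 34.7% from 300 to under 400 bp, 44.0% from 500 to under 600 bp and 58.7% from 800 to under 1000 bp. From 1000 bp on it was 7.42%, where the length limit of the rule applies. The overlap rule allows a larger offset in bp in a longer region, so these shares are not independent of the rule and are a description. Support in both replicates was 20.7% in the shortest class for matching pairs and 20.0% for other pairs. From 300 to under 400 bp it was 53.2% and 46.4%, from 500 to under 600 bp 74.2% and 61.1%, and from 800 to under 1000 bp 89.2% and 74.1%. The excess of matching pairs in these classes thus widened with length from 0.764 to 15.1 percentage points. Regions of 1000 bp and more had 87.6% in matching pairs and 88.6% in other pairs.

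**Figure D3:**
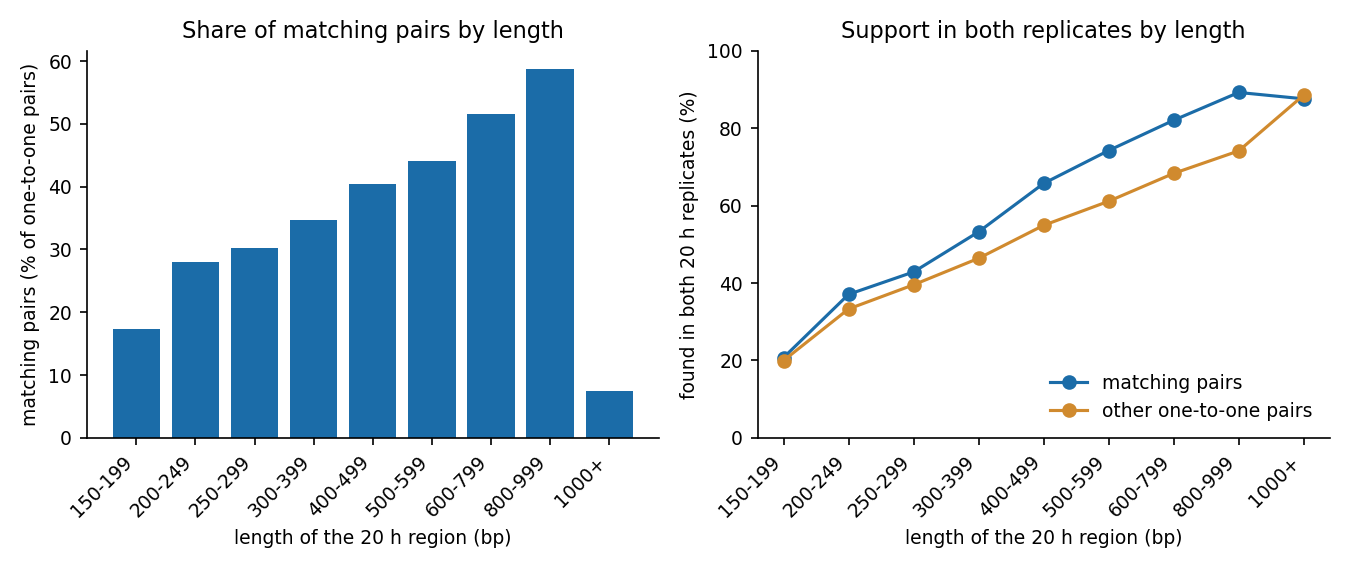
Left, matching pairs as a share (%) of one-to-one pairs, by length of the 20 h region in bp. Right, share (%) of regions found in both 20 h replicates for matching pairs (blue) and other one-to-one pairs (orange) in the same length classes. The share of matching pairs climbs to 58.7% from 800 to under 1000 bp, where the rule allows larger offsets than in short regions. The lines part from 20.7% and 20.0% in the shortest class to 89.2% and 74.1% from 800 to under 1000 bp.

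Values were close on both sides of the limits of the rule. The 5290 pairs with a reciprocal overlap from 80 to under 82%, of which 5241 were matching pairs, had a median length of 305 bp at 20 h and 327.5 bp at 12 h, and 46.5% were found in both replicates. The 5053 pairs just outside, from 78 to under 80%, had 308 and 327 bp and 46.8%. At the other end the 6137 pairs with an overlap of 95% or more had 429 and 430 bp and 65.7%. Of pairs that met the overlap rule, 709 had a shorter region of 900 to under 1000 bp and were found in both replicates in 89.99%, and 446 outside the limit with 1000 to under 1100 bp were found in 91.5%. There were 518 matching pairs that reached 1000 bp at 1 stage.

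The peaks of single libraries also lay nearer to the 12 h region in matching pairs. The rule holds the pooled 20 h region to the 12 h region and the pooled list was called on these libraries, so the values of this paragraph largely follow from the choice of pairs and are a description. The summit, the position of highest enrichment in the library, fell inside the 12 h region in 97.3% of matching pairs for the first technical replicate, 98.8% for the second and 96.2% for replicate 2. In other pairs these shares were 85.9%, 91.8% and 89.4%. The median distance from the summit to the centre of the 12 h region was 63.5, 48 and 69 bp in matching pairs, against 87, 67 and 82.5 bp in other pairs. The region called in the library covered, and was covered by, at least 80% of the 12 h region in 29.8%, 51.3% and 30.7% of matching pairs with a peak, against 7.31%, 12.0% and 9.90% of other pairs. The library regions were also longer, with medians of 277, 307 and 264 bp in matching pairs and 240, 261 and 216 bp in other pairs.

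Summits of different libraries were slightly closer together in matching pairs. Between replicate 2 and the first technical replicate of replicate 1 the median gap was 84 bp in 18234 matching pairs and 95 bp in 25619 other pairs. Against the second technical replicate it was 66 bp in 21400 and 76 bp in 31840. Between the technical replicates it was 68 bp in 28224 and 75 bp in 46139, close to the gap between replicate 2 and the second technical replicate. The quality report of the study lists the first technical replicate as paired-end and the second and replicate 2 as single-end. Gaps between technical and between biological replicates therefore cannot be compared apart from read type. All 3 summits lay within 50 bp of each other in 18.8% of matching pairs with 3 peaks (3184), against 13.7% of other pairs (2935). Weighted to the same 20 h lengths the mean difference between biological replicates widened to -22 bp, from -10.5 bp unweighted. Across regions the Spearman correlation of fold between replicate 2 and the technical replicates was 0.38 and 0.41 in matching pairs and 0.26 and 0.27 in other pairs. Regions are not replicates, so these are descriptions.

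The 10 best ranked matching pairs had a peak in all 3 libraries and were 602 to 988 bp long at 20 h. First was a region of 940 bp on scaffold 2459, from 102369 to 103308 at 20 h and from 102381 to 103344 at 12 h. Its fold was 11.8 and 13.9 in replicate 1, technical replicates in order, and 18.5 in replicate 2. The summits of the second technical replicate and of replicate 2 were at 102572 and 102569, but that of the first technical replicate was 460 bp away from the farther of them, at 103029. The second, on scaffold 11, began at 830234 at both stages and ended at 831093 at 20 h and 831045 at 12 h, with folds of 12.5, 11.2 and 19.0 in the same order. The third, on scaffold 91 from 513499 to 514486 at 20 h and from 513487 to 514451 at 12 h, had folds of 13.5, 12.9 and 16.0. Its 3 summits lay within 14 bp.

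The highest folds among the 10 in both technical replicates of replicate 1 were on scaffold 1909, from 108523 to 109140 at 20 h and from 108495 to 109135 at 12 h. They were 19.9 and 17.2 in replicate 1 and 18.9 in replicate 2, where scaffold 11 was higher, and the summits at 108658, 108659 and 108669 were the closest of the 10. The nearest other 20 h region was 15650 bp away, whereas the nearest other 12 h region was 313 bp away. The region on scaffold 2102 ran from 4184 to 4903 at 20 h and from 4201 to 4837 at 12 h and had the lowest overlap of the 10, with 88.5%. Positions 294587 to 295396 of scaffold 1015, 138460 to 139100 of scaffold 10, 164257 to 165001 of scaffold 1426, 235005 to 235617 of scaffold 1224 and 75603 to 76204 of scaffold 22, all at 20 h, made up the rest. Replicate 2 was higher than both technical replicates in each of the 10 except scaffold 1909.

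**Figure D4:**
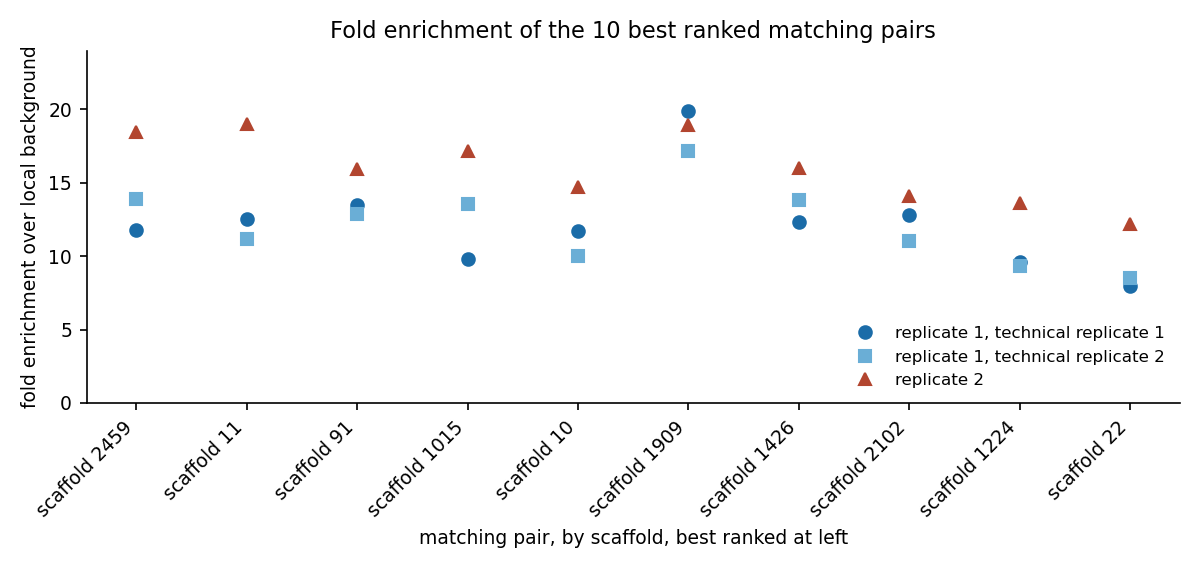
Fold enrichment over the local background in each 20 h library (circles and squares, technical replicates of replicate 1; triangles, replicate 2) for the 10 best ranked matching pairs, named by scaffold. Replicate 2 lies above both technical replicates except on scaffold 1909, where the folds are 19.9, 17.2 and 18.9, and the lowest fold shown is 7.96 on scaffold 22.

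Further down the ranking the regions were shorter and overlapped by a smaller share of their length. The best 100 matching pairs had a median length of 781 bp at 20 h and 763.5 bp at 12 h, a median overlap of 94.1% and median folds of 9.48, 9.35 and 13.0. The best 1000 had 697.5 and 697 bp, 92.4% and folds of 7.03, 7.11 and 9.98, and the best 10000 had 547 and 560 bp, 90.3% and folds of 4.31, 4.69 and 4.89. Over all matching pairs the median overlap was 88.0%. The same offset in bp is a larger share of a shorter region, and offsets in bp were not compared along the ranking. The longest matching pairs at 20 h were not the strongest. That on scaffold 1426 from 214561 to 215757 was 1197 bp long with folds of 4.10, 2.67 and 3.31, and the next, at 721715 to 722902 of scaffold 36 and at 261347 to 262520 of scaffold 914, had folds of at most 6.70 and 4.99. At the short end 774 matching pairs were exactly 150 bp at 20 h, the shortest length in either list, and 79 were so at both stages. Of the first 3 of these by name of scaffold, at 73309 to 73458 of scaffold 1010, 834427 to 834576 of scaffold 103 and 149775 to 149924 of scaffold 1034, none had a peak in more than 1 library, and that on scaffold 103 had none.

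Spacing differed little between the groups. The gap to the nearest other 20 h region had a median of 719 bp in matching pairs (quartiles 319 and 1529 bp) and 754 bp in other pairs (373 and 1502 bp), with 589 bp over all 20 h regions. The gap to the nearest other 12 h region had a median of 673 bp in matching pairs and 651 bp in other pairs, so that the order turned round in the 12 h list. Gaps under 200 bp were found for 15.3% of matching pairs and 11.6% of other pairs at 20 h, and for 15.4% and 14.7% at 12 h. For 491 matching pairs no other 20 h region lay on the scaffold.

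A matching pair was followed along the scaffold by another matching pair slightly more often than another pair was. When regions of both lists that overlapped were joined into 328915 loci, of which 12.7% were matching pairs, the next locus was a matching pair after 15.7% of matching pairs and after 13.3% of other pairs. It was a 20 h region without 12 h overlap after 24.2% and 25.4%, against 28.6% of all loci. Of the matching pairs, 30083 stood singly and 11632 (27.9%) stood in 5259 unbroken runs, most of them the 4371 runs of 2. There were 713 runs of 3, 139 of 4, 27 of 5 and 7 of 6.

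The longest run held 11 matching pairs between 72986 and 147116 on scaffold 2875, with no other region of either stage in these 74131 bp. All 11 were found in both replicates and 6 in every library. Their folds ran from 2.99 to 11.7 in the first and from 3.01 to 13.4 in the second technical replicate of replicate 1 and from 2.43 to 8.05 in replicate 2, and their 20 h lengths from 183 to 950 bp. This run was sparse, with 1 region in 6739 bp. The next, with 7 on scaffold 1482 from 174344 to 188148, was denser, with 1 region in 1972 bp, and only 3 of its regions were found in both replicates. The 7 runs of 6 were on scaffolds 1106, 1266, 1386, 17, 2653, 324 and 417. In that on scaffold 324, from 431330 to 438443, all 6 regions were found in both replicates, with folds of up to 9.64, 10.6 and 16.5. The run on scaffold 1386, from 90130 to 99348, had 3 of its regions in reporter fragments of *Ese*, a gene of the Ets family of transcription factors.

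Matching pairs were found on 4242 of the 5772 scaffolds with a one-to-one pair. On the 372 scaffolds with at least 100 such pairs their share had a median of 30.3%. It was highest on scaffold 45, with 75 of 171 pairs (43.9%, Wilson interval 36.6 to 51.4%), followed by scaffold 651 with 66 of 155 and scaffold 220 with 50 of 119. It was lowest on scaffold 336, with 21 of 105 (20.0%, 13.5 to 28.6%), followed by scaffold 333 with 33 of 162 and scaffold 182 with 33 of 159. These scaffolds were picked as the extremes of 372 by this same share, and the intervals do not allow for that choice. Whether the scaffolds differ beyond counting error was not tested. Median 20 h lengths of the pairs were 312, 309 and 290 bp on the scaffolds with the highest shares and 262, 272 and 298 bp on those with the lowest.

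Around regulatory genes the matching pairs can be set beside DNA fragments measured in reporter genes in earlier work, whose coordinates the study lists in the same genome version. The 389 fragments of 37 genes covered 1049 kb and held the centres of 487 pooled 20 h regions. Of these regions 126 were matching pairs (25.9%, 22.2 to 29.9%), against 16.1% of all 20 h regions, and of the 323 one-to-one pairs there 39.0% (33.8 to 44.4%) were, against 31.6% of all one-to-one pairs. In the fragments 79.4% of matching pairs (100) and 57.4% of the 197 other pairs (113) were found in both replicates. The median 20 h length was 425.5 bp in these matching pairs and 273 bp in these other pairs, while at 12 h it was 453 and 438 bp. Median folds were 3.44, 3.12 and 3.89 in matching pairs and 2.92, 2.77 and 2.87 in other pairs. The fragments had been selected mainly for sequence conservation, so they are no random sample of the genome, and the part of conservation in these differences was not tested. Whether a matching pair lay in a fragment that drove a reporter was not examined here.

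At least 1 matching pair fell in fragments of 35 of the genes, all except *Ecr* and *FoxO*, whose fragments held only 1 and 4 regions. *Tbx23*, a T-box transcription factor gene, had the most, with 10 of 26 regions, 9 of them found in both replicates. Its best ranked was on scaffold 364 from 510882 to 511733, with folds of 7.78 and 6.28 in replicate 1 and 9.25 in replicate 2. *Sip1*, which encodes a zinc finger homeodomain protein, had 9 of 18, and its best ranked, on scaffold 5 from 921781 to 922509, had bounds within 3 and 7 bp of those at 12 h and folds of 5.98, 4.64 and 11.01. *Dach*, for the transcriptional cofactor dachshund, had 8 of 31, led by scaffold 1640 from 173569 to 174220 with 2.98, 4.74 and 7.46. *Lim1*, a LIM homeobox gene, had 8 of 28, led by scaffold 857 from 255054 to 255987, which ended at the same base at both stages and had folds of 5.06, 4.23 and 5.41.

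*Chordin* and *Bmp24* are genes of BMP signalling on the axis from oral to aboral ectoderm. Matching pairs made up 25% and 30% of their regions, near the 25.9% of all 20 h regions in the fragments. *Chordin*, whose product binds BMP ligands outside the cell, had 7 of 28, the best ranked on scaffold 1440 from 131613 to 132294 with folds of 5.31, 3.91 and 7.46. *Bmp24*, the gene of the ligand itself, had 6 of 20, the best ranked on scaffold 344 from 546643 to 547257 with folds of 4.06, 4.58 and 7.20 and an overlap of 84.4%. Replicate 2 had the highest fold in the best ranked region of each of these genes so far, and other regions of the genes were not compared.

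Of the genes with 5 matching pairs, *FoxJ1*, a forkhead factor gene known for its part in building motile cilia, had 5 of 7 regions, the largest share among the 10 genes with most. Its best ranked, on scaffold 378 from 191658 to 192011, was short, with 354 bp, and its summits lay within 9 bp of each other, with folds of 3.42, 4.27 and 8.13. *Dlx*, a homeobox gene, had 5 of 9, the best ranked on scaffold 119 from 786374 to 787143 with folds of 5.61, 3.50 and 5.81. *Ese* had 5 of 12, the best ranked on scaffold 1386 from 91803 to 92529 with folds of 4.38, 5.09 and 12.1. *FoxN23*, another forkhead factor gene, had 5 of 27, the smallest share of the 10, and its best ranked, on scaffold 592 from 124115 to 124536, had folds of 2.87, 2.68 and 3.46.

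**Figure D5:**
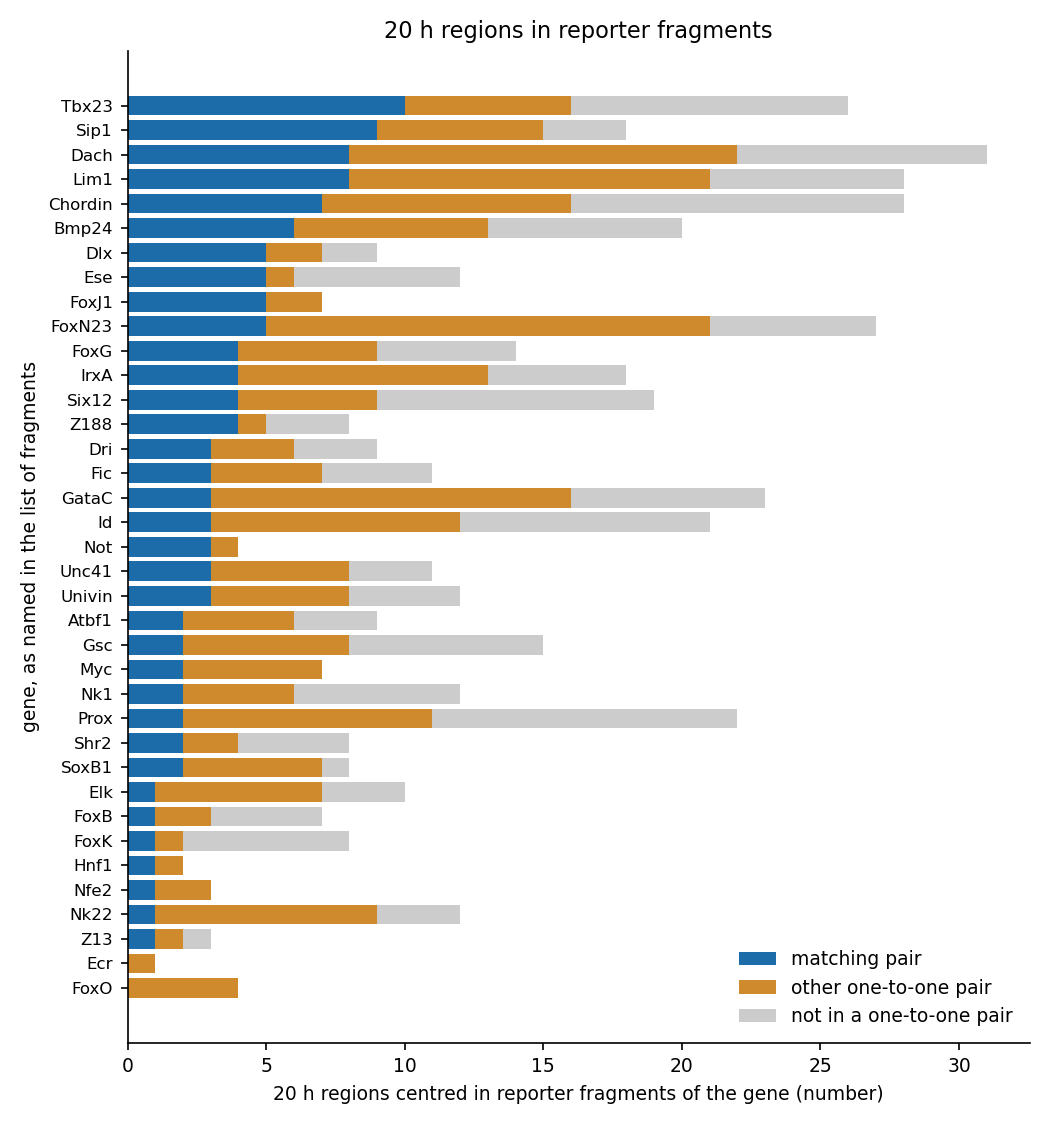
Number of pooled 20 h regions centred in reporter fragments of each of 37 genes, split into matching pairs (blue), other one-to-one pairs (orange) and regions in no one-to-one pair (grey). *Tbx23* has the most matching pairs, 10 of 26 regions, *FoxJ1* has 5 of 7, and *Ecr* with 1 region and *FoxO* with 4 have none.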

How the data were processed

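The authors mapped ATAC-seq reads to genome version 3.1 with the ENCODE pipeline (bowtie2), removed duplicates and mitochondrial reads and called peaks with MACS2 (version not given in the sources used here) at p 0.05, keeping at most 300000. They deposited 1 list of merged regions per stage, called on pooled libraries, with coordinates only. For each 20 h library they deposited a peak list with fold enrichment (a ratio to the local background of the library) and −log10 p and −log10 q values from the peak caller. No list of a single 12 h library was used.

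Library peaks that overlapped or touched were merged and given the fold and summit of the peak with the best −log10 p. Support means an overlap of at least 1 bp. Weighting over length used classes of 50 bp. Values of technical replicates were averaged before biological replicates (n = 2). Scripts ran under Python 3.11.15, numpy 2.4.6, pandas 2.3.3, scipy 1.17.1 and matplotlib 3.10.9. The pairing, support and weighting functions were tested on simulated data.

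The regions and the comparisons were chosen with earlier results of these data known. Named regions are the 10 ranking best when the ranks by −log10 p in the 3 libraries were averaged (no peak ranking last), the 5 best ranked with the same bounds, the 3 longest and 3 shortest at 20 h, and the 3 longest runs with ties. They also include, among scaffolds with at least 100 pairs, the 3 richest and the 3 poorest in matching pairs by share, and the best ranked in each of the 10 genes with most matching pairs in reporter fragments. Of the reporter fragments only coordinates and gene names were used, taken as listed. No sequence or annotation of version 3.1 was used. Alternatives were other overlap and length limits, merging within 100 bp, stricter peak limits, weighting over length, other summaries of fold and leaving out each library.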

Additional observations from a re-analysis of the deposited data

How the results depend on the processing

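Matching pairs made up 77.65% of one-to-one pairs at a reciprocal overlap of 50%, 12.27% at 90%, 30.82% with regions within 100 bp merged first, 32.61% with no length limit and 31.96% with other pairs held to the same length limit. The support difference of 14.37 points was 11.35 at 50% overlap, 17.83 at 90%, 16.37 with no length limit, 17.2 with library peaks of −log10 p of at least 3, 17.41 with the 150000 best regions of each library and 7.43 after weighting other pairs to the 20 h lengths. The log2 ratio of fold medians (0.18) was 0.055 at 50% overlap, 0.26 at 90%, 0.24 in regions found in all 3 libraries and 0.35 for the third quartiles. The difference in summit gap (-10.5 bp) was -18.5 bp at 50% overlap, -13 bp with merging, -4.5 bp with no length limit, -8 bp with other pairs held to the limit, -14 bp at −log10 p of at least 3, -12.5 bp with the 150000 best regions, -22 bp after weighting to 20 h lengths and -7.5 bp after weighting to 12 h lengths. The difference in the median gap to the nearest 20 h region (-35 bp) was -100 bp at 50% overlap, -17 bp with merging, -23 bp with no length limit and -13 bp after weighting to 20 h lengths, and in the 12 h list it turned round to 22 bp. Weighting to 12 h lengths and the third quartiles were chosen after seeing the data. The causes were not tested.

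Leaving out a library gave support differences of 15.35 to 16.06 points, log2 fold ratios of 0.15 to 0.21 and summit differences of -11 to -10 bp. Without a whole biological replicate, support in both and summit gaps have no value. No paired analysis was possible because 12 h values came from 1 pooled list and no test was made. The lists carry no read counts and libraries differ in depth, the peak caller's p and q values carry no replicate error, and the caps on peak number leave out weak regions of unknown number, so a region absent from a list was not detectable at that depth and limit.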
